A study of Homo sapiens with 32 samples.

Results

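The promoters of long noncoding RNA (lncRNA) genes that stand apart from protein-coding promoters were examined by ATAC-seq. The Tn5 transposase places adapters where chromatin is open, so that the count in a window measures how accessible its DNA is. A window of the count table belonged to this class when its centre lay within 500 bp of the transcript start of a lncRNA gene of GENCODE release 44 and more than 1000 bp from every protein-coding transcript start. The rule used position alone and no measured value. It was met by 4884 of the 212358 windows, or 2.30%. Counting only the gene with the nearest start for each window, these belonged to 3270 of the 18866 annotated lncRNA genes. For 320 windows, starts of 2 or more lncRNA genes lay within 500 bp, and the further genes are not in this count. Among the 3270 genes, counted in the same way, 2113 had 1 window, 871 had 2 and 286 had 3 or more.

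The cells were HEK_CloneZD29, a single clone of the human embryonic kidney line HEK293T engineered so that ZNF143, a transcription factor with zinc fingers, bears a degron that can be switched on. The labels state the tag for replicates 1 to 8 and only the clone name for replicates 9 to 16, which are the libraries analysed here. The 8 control libraries are labelled DMSO, the solvent, although the treatment protocol in the labels speaks of no treatment for controls, so that what they received is not settled here, and the 8 dTAGV-1 libraries received 50 nM dTAGV-1, which recruits a ubiquitin ligase to the tag, for 30 minutes. From the clone name, both groups are taken to carry the tagged factor. The question is how open these promoters are shortly after the compound is added. Neither ZNF143 protein nor RNA synthesis was analysed, and the loss of the factor and the output of these promoters are unknown. The labels do not say whether replicates came from separate cultures, and p-values measure only the spread between these libraries, which may be technical.

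LncRNA genes are transcribed by RNA polymerase II from promoters that resemble those of coding genes, although many are weaker and lack a CpG island. Some host small nucleolar RNAs or microRNAs in their introns, some act on chromatin near their own locus, and for most no function is known. ZNF143 is a sequence-specific activator that binds close to transcription starts. Its best-known site combines an ACTACA module with a CCCA module and, in many copies, the letters that follow the CCCA.

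Of the 4304 lncRNA promoter windows tested, 11 fell in accessibility, or 0.256%, beside 0.213% of all tested windows. Within 100 bp of their centre, 8 of the 11 held the same element, written ACTACANNNCCCA with N for any base, as did 273 of the 395 falling windows of the whole table. This element was chosen after the sequences of the falling windows were seen, and its letters match the known site of ZNF143. The stretches below carry the best match in each of the 11 windows, in order of p-value, read along the strand of the element from hg38. Capitals mark the 13 bases of the match, which is exact except in LINC01530 and LINC01775, with 1 letter different, and ENSG00000286527, with 2.
SRD5A3-AS1, chr4:55386191-55386229, plus strand: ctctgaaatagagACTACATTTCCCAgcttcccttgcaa
ENSG00000267052, chr7:106598939-106598977, minus strand: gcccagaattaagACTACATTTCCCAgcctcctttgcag
ENSG00000290112, chr2:2613536-2613574, plus strand: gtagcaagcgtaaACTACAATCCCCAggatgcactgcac
LINC02363, chr4:184343996-184344034, minus strand: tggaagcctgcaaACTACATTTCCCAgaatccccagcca
LINC01530, chr19:51594462-51594500, minus strand: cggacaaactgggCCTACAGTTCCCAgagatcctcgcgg
ENSG00000273102, chr21:33968497-33968535, minus strand: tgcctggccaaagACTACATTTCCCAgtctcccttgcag
LINC01704, chr1:158149910-158149937, minus strand: aaACTACAACACCCAtagtgccccgcgc
LINC01775, chr19:2462159-2462197, plus strand: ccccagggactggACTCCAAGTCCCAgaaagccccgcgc
ENSG00000286842, chr9:87445791-87445829, plus strand: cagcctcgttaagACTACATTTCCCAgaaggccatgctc
ENSG00000286527, chr14:32201723-32201761, minus strand: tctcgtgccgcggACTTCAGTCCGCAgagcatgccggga
ENSG00000287001, chr19:50148273-50148311, plus strand: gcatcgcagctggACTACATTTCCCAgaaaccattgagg

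In 6 of these 11 windows the match reads ACTACATTTCCCA. The window of ENSG00000290112 was the only called one that also held the shorter ZNF143 core, CCCANAATGC or CCCANCATGC, with 3 exact copies beside 1 copy of the long element. Its central stretch, chr2:2613466-2613666, is given with all 4 matches in capitals, since several copies lie within a single window.
ENSG00000290112: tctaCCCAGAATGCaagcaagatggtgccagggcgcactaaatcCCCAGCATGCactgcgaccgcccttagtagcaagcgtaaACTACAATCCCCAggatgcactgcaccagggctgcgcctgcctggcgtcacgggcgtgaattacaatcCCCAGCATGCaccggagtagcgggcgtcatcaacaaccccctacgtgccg

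Total counts in windows ranged from 2275856 to 11418578 in the control libraries and from 3373219 to 13671039 in the dTAGV-1 libraries. The lncRNA promoters took 2.82% to 3.35% of the counts in control and 3.03% to 3.34% in dTAGV-1 libraries, with a median count per window of 10 to 44 and 14 to 53. Replicates 11 and 12 had flatter profiles than the rest. The share of counts in the top decile of windows was 29.5% in control replicate 12, 36.4% in dTAGV-1 replicate 12, 39.0% in dTAGV-1 replicate 11 and 42.9% in control replicate 11, against 45.3% to 46.5% in the other 12 libraries. Results that rest on these libraries are given with and without them.

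LncRNA promoters were intermediate in accessibility. After a filter on low counts, 4304 of the 4884 windows were tested, and their mean in the control libraries had a median of 2.04 log2 CPM, a count scaled to library size, with quartiles of 1.07 and 3.13. The same median was 3.14 over the 31702 tested windows within 500 bp of a coding start, 1.17 over the 136698 windows more than 1000 bp from any start, and 1.42 over all 185040 tested windows. Of the lncRNA promoter windows, 143 reached 5 log2 CPM and 17 reached 6. Median GC content was 54.0%, compared with 64.3% at coding promoters and 46.1% away from starts, and the median ratio of observed to expected CpG was 0.401, 0.761 and 0.208. The separate summit list, which was made from replicates 1 to 8, had a summit in 77.2% of the lncRNA windows and in 77.8% of all windows. No test was run on these differences of level and composition.

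Windows gathered just upstream of the start. With distances taken along the lncRNA's own strand, 1377 windows were centred in the 100 bp upstream of the start and 692 in the 100 bp downstream, while each 100 bp at the outer upstream end held 265 or 310. The median control level was 2.46 log2 CPM in the 100 bp upstream, 2.04 in the 100 bp downstream and 1.62 at 400 to 500 bp on either side. Quartiles overlapped among all positions, from 1.29 to 3.62 in the upstream 100 bp and from 0.84 to 2.67 at the far upstream end. Windows with starts of 2 or more lncRNA genes within 500 bp numbered 320, and their median level was 3.15 log2 CPM. Windows with a GC content of 60% and over had a median of 3.01, those at 50 to 60% a median of 1.87, and those below 50% a median of 1.41 log2 CPM.

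**Figure D1:**
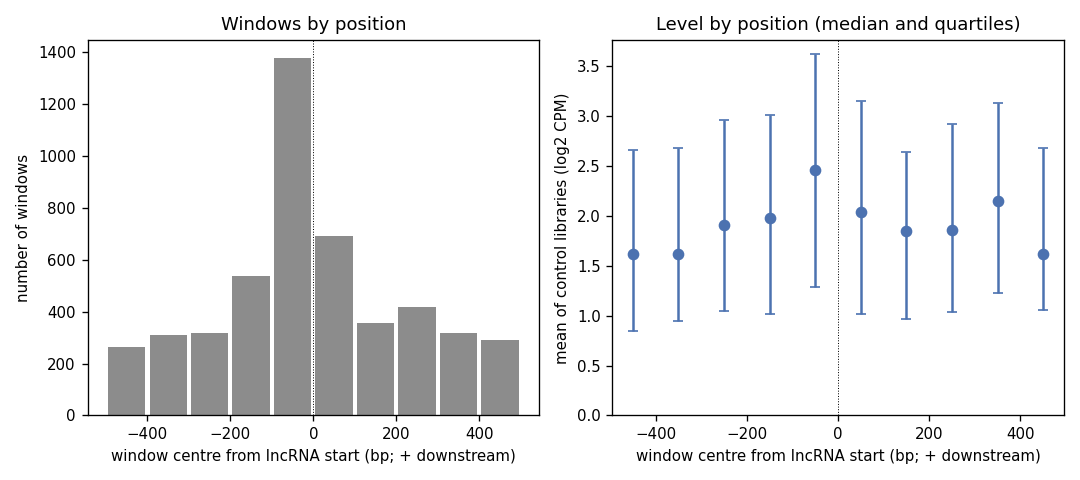
Number of lncRNA promoter windows (left) and their mean level in the 8 control libraries in log2 CPM (right; point: median of tested windows, bar: quartiles), by distance of the window centre from the lncRNA start in bp, positive downstream. Windows are most frequent in the 100 bp upstream of the start, 1377 in number, where the median level is 2.46.

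None of the 17 windows at or above 6 log2 CPM passed the test. Since 0.213% of all tested windows were called lower, 17 windows are too few for this to be read as a result. The highest, ENSG00000291149 at chr7:143836689-143837089, had means of 7.18 in control and 7.26 in dTAGV-1 libraries and a log2 fold change of 0.05 (SE 0.19, adjusted p = 1, edgeR). For a ranking by gene, each window was counted only under the gene with the nearest start. Among genes with a symbol, the 10 ranked highest in this way were GPC5-AS1, MIR17HG, LINC02018, ENTPD3-AS1, PCGF3-AS1, LINC01003, DANCR, OLMALINC, LINC01132 and MIRLET7A1HG, at control means of 6.50 down to 5.97 log2 CPM. MIR17HG, which hosts the miR-17-92 cluster of microRNAs, ranged over 5.11 to 6.81 log2 CPM with a median of 6.67 in control libraries and over 5.51 to 6.86 with a median of 6.64 in dTAGV-1 libraries, at chr13:91347297-91347697. DANCR, a snoRNA host known for restraining differentiation, had control medians of 6.36 and dTAGV-1 medians of 6.36 log2 CPM at chr4:52712138-52712538. Fold changes of these 10 genes with a symbol lay between -0.19 (LINC01132, SE 0.15) and 0.09 (PCGF3-AS1, SE 0.17) on the log2 scale. Each of them had an adjusted p of 1 by edgeR's quasi-likelihood test.

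After dTAGV-1, 11 of the 4304 tested lncRNA promoter windows fell in accessibility and 0 were called higher by edgeR's quasi-likelihood test. DESeq2 called 12 lower and 0 higher. The 11 called windows were 0.256% of those tested. Over all tested windows, 395 were called lower, or 0.213%, and 2 were called higher, or 0.00108%, by the same test at an adjusted p of 0.05. At an unadjusted p of 0.05, 70 lncRNA windows were lower and 52 higher, beside backgrounds of 1.55% lower and 1.3% higher, which is close to the members' own 1.63% and 1.21%. The share of coding promoters called lower was 0.628%, 199 windows, and that of windows more than 1000 bp from any start was 0.115%, 157 windows. Median log2 fold change was 0.01 over the lncRNA promoters and 0.01 over all tested windows, and 82.8% of the lncRNA windows lay within 0.25 of 0.

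The positions of the 11 called windows are given beside those of all 4884 as a description, and no test was run on them. The centres of the called windows were 0 to 267 bp from the lncRNA start with a median of 41 bp, 8 of the 11 within 75 bp. Over all 4884 the median was 136 bp, and 1753 lay within 75 bp. Each called window was 5226 to 281902 bp from the nearest coding start. The centre was intergenic in 6, intronic in 3 and in a lncRNA exon in 2, beside 1161, 1849 and 1689 of all 4884. A summit of replicates 1 to 8 fell in 10 of the 11, beside 77.2% of all 4884.

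SRD5A3-AS1 is transcribed antisense to SRD5A3, which encodes a polyprenol reductase. Its window at chr4:55386031-55386431 was centred 175 bp downstream of the lncRNA start, in an intron and inside the body of the coding gene ENSG00000288695, and 9726 bp from the start of TMEM165. Control libraries ranged from 1.85 to 3.52 log2 CPM with a median of 2.88, and dTAGV-1 libraries from 0.94 to 2.06 with a median of 1.38. All 8 replicate pairs were lower in dTAGV-1, and 5 dTAGV-1 libraries were under every control, the lowest of which was replicate 12. The log2 fold change was -1.57 (SE 0.19, adjusted p = 3.31e-07, edgeR), so that 33.7% of the accessibility was left.

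ENSG00000267052, at chr7:106598723-106599123, lies 62235 bp from the nearest coding start, that of CCDC71L. Its window had 2.24 to 3.49 log2 CPM in control libraries with a median of 3.21, and 0.92 to 2.56 with a median of 1.76 in dTAGV-1 libraries. The fold change was -1.43 on the log2 scale (SE 0.18, adjusted p = 1.61e-06, edgeR), again lower in all 8 pairs. Without control replicate 12, the lowest control, the adjusted p was 9.6e-09.

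ENSG00000290112, with its 4 matches, was the called promoter farthest from coding genes, 281902 bp from the start of MYT1L, at chr2:2613366-2613766. Its control libraries spanned 2.80 to 4.17 log2 CPM with a median of 3.94, and its dTAGV-1 libraries 2.26 to 3.26 with a median of 2.85. It fell by 1.09 on the log2 scale (SE 0.15, adjusted p = 1.03e-05, edgeR). Of the 8 pairs, 7 were lower.

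LINC02363 and LINC01704, lncRNAs named by number, had windows that were lower in 7 of 8 pairs each. At LINC02363, chr4:184343803-184344203, control libraries had 1.69 to 3.43 log2 CPM (median 3.18) and dTAGV-1 libraries 2.03 to 2.52 (median 2.20). Control replicate 12 lay below every dTAGV-1 library there, and the other 7 controls lay above them all. The log2 fold change was -0.93 (SE 0.16, adjusted p = 0.000357, edgeR). At LINC01704, chr1:158149637-158150037, the corresponding values were 3.56 to 4.53 (median 4.30) and 3.19 to 3.80 (median 3.55), with a change of -0.74 (SE 0.14, adjusted p = 0.00204, edgeR).

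ENSG00000273102 showed the lowest fold change of the class, on few counts. Its window, chr21:33968332-33968732, overlaps an exon of the lncRNA within LINC00649 and was the called window without a summit in replicates 1 to 8. Libraries held 4 to 32 counts in control and 2 to 10 in dTAGV-1. In log2 CPM the control range was 0.80 to 1.81 (median 1.35) and the dTAGV-1 range -0.98 to 1.07 (median -0.12), with 7 of the 8 dTAGV-1 libraries below every control. The log2 fold change was -1.76 (SE 0.32, adjusted p = 0.00111, edgeR).

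ENSG00000286842, at chr9:87445648-87446048 and 51380 bp from the start of the death-associated kinase gene DAPK1, was also weak. It had 1.47 to 2.80 log2 CPM in control libraries (median 2.27) and 0.69 to 1.53 in dTAGV-1 libraries (median 1.18). The groups overlapped by 1 dTAGV-1 library, and all 8 pairs were lower, with a log2 fold change of -1.06 (SE 0.20, adjusted p = 0.00234, edgeR).

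ENSG00000287001, at chr19:50148119-50148519, was the called window whose groups did not overlap. All 8 dTAGV-1 libraries, 2.90 to 3.68 log2 CPM with a median of 3.50, lay below all 8 controls, 3.86 to 4.27 with a median of 4.03. Over all tested windows such a separation downwards occurred in 132, or 0.0713%, and upwards in 6, or 0.00324%. Among lncRNA promoters it occurred in 2, and the other was ENSG00000287364, named after its values were seen, with means of 0.92 (control) and -0.12 (dTAGV-1) log2 CPM, whose adjusted p was 0.245. The change at ENSG00000287001 was the smallest called, -0.62 on the log2 scale (SE 0.13, adjusted p = 0.0155, edgeR). It was no longer called when control replicate 9, 10 or 13 or dTAGV-1 replicate 9 was left out, at adjusted p-values of up to 0.0901.

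The other 3 called windows held no exact long element. LINC01530, at chr19:51594271-51594671 and 13103 bp from the start of the zinc finger gene ZNF175, had 3.78 to 4.96 log2 CPM in control (median 4.78) and 3.59 to 4.17 in dTAGV-1 libraries (median 4.02). It fell by 0.80 on the log2 scale (SE 0.14, adjusted p = 0.00104, edgeR), lower in 8 of 8 pairs. LINC01775, at chr19:2461985-2462385, was the called promoter nearest a coding start, 5226 bp from that of the lamin B2 gene LMNB2. It ranged over 1.95 to 2.97 log2 CPM (median 2.50) in control and 0.89 to 2.03 (median 1.54) in dTAGV-1 libraries, with a change of -0.97 (SE 0.18, adjusted p = 0.00234, edgeR). ENSG00000286527, at chr14:32201543-32201943, had 3.37 to 4.16 log2 CPM (median 3.92) and 2.83 to 3.57 (median 3.23), with a change of -0.67 (SE 0.14, adjusted p = 0.00698, edgeR) and all 8 pairs lower.

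Averaged over the 11 windows, control libraries had 2.73 to 3.41 log2 CPM, with replicate 12 lowest, and dTAGV-1 libraries had 2.17 to 2.38. Since the windows were chosen by this comparison, that separation is a description.

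**Figure D2:**
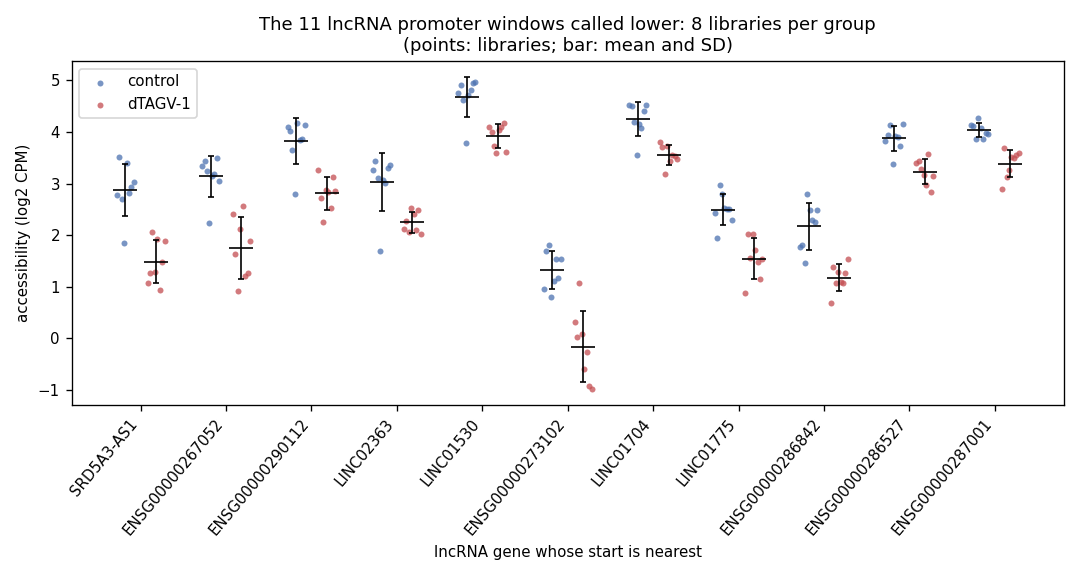
Accessibility in log2 CPM of the 11 lncRNA promoter windows called lower, each point a library (8 control, 8 dTAGV-1), with the group mean and SD as a bar. ENSG00000287001 is the window whose groups do not overlap, and control replicate 12 is the low control point at LINC02363, at 1.69.

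Most of the called lncRNA promoters held the long element. Of the 4884 windows, 29 had it no more than 100 bp from the centre, 0.594%, beside 1.57% of coding promoters and 0.251% of windows more than 1000 bp from any start. Of the 26 that were tested, 26 had a negative fold change, 14 had an unadjusted p under 0.05 and 8 were called lower, with a median log2 fold change of -0.44. The 4251 tested lncRNA promoter windows with neither the element nor the core had a median of 0.01, with 47.3% negative and 3 called. Over all tested windows with the element, 850 of 939 were negative, 273 of the 395 lower calls held it, and the median was -0.44. The same medians were -0.32 over 506 coding promoters and -0.73 over 367 windows away from starts. Because the element was chosen from these windows, these values describe it and do not test it.

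Windows with the core alone had smaller differences. CCCANAATGC or CCCANCATGC, on either strand, was found in 34 lncRNA promoters, or 0.696%, beside 0.887% of coding promoters and 0.513% of windows away from starts. Of the 27 tested lncRNA promoters with the core but no long element, 15 had a negative fold change and 0 were called, with a median of -0.04. LINC00662, at chr19:27793758-27794158, was the one of these with the smallest p-value. Its control libraries ranged from 3.61 to 4.83 log2 CPM (median 4.45) and its dTAGV-1 libraries from 3.58 to 4.27 (median 3.85), a difference of -0.57 (SE 0.14, adjusted p = 0.111, edgeR). Without control replicate 12 its adjusted p was 0.000803, and by DESeq2 it was 0.0492.

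**Figure D3:**
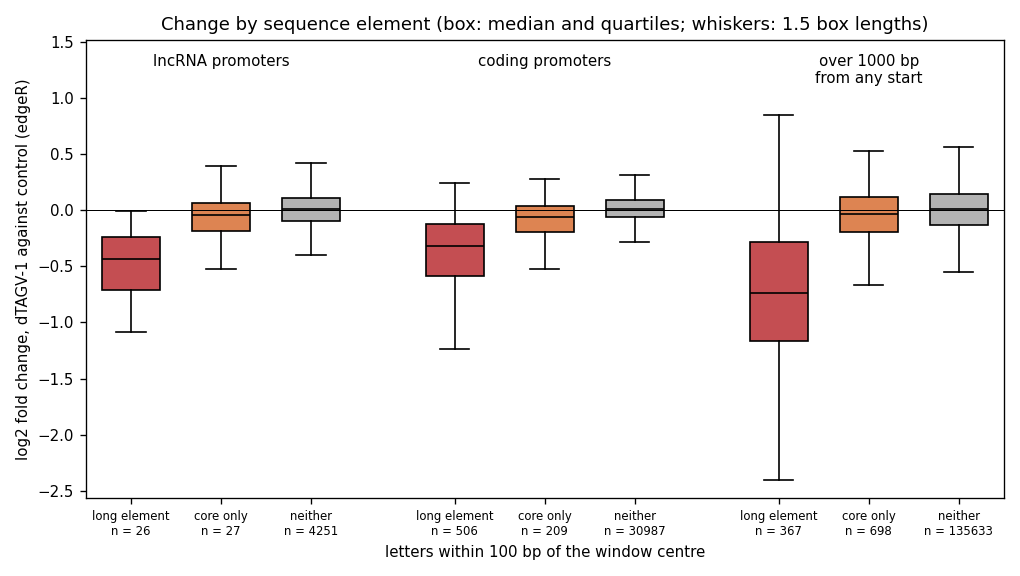
Log2 fold change of tested windows with the long element, with the core only and with neither, in lncRNA promoters, coding promoters and windows more than 1000 bp from any start (box: median and quartiles, whiskers to 1.5 box lengths). Medians with the long element are -0.44, -0.32 and -0.73, and with neither they lie at 0.01.

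Other motifs were counted within the same 100 bp of the centre, on both strands and allowing overlaps, as a description. A CTCF motif occurred in 3.32% of lncRNA promoters, 1.14% of coding promoters and 3.4% of windows away from starts. An NFY motif occurred in 9.99%, 12.1% and 6.7%. The motifs of ETS, of SP and KLF, and of the cyclic AMP response, given next, occurred in 0.19%, 0.928% and 0.183% of windows away from starts. CCGGAAGT, bound by ETS factors, occurred in 1.33% of lncRNA and 3.29% of coding promoters. GGGGCGGGG, bound by SP and KLF factors, occurred in 5.55% and 15.9%. TGACGTCA, the cyclic AMP response element, occurred in 0.921% and 1.37%. TGACTCA or TGAGTCA, bound by AP1, occurred in 5.61% of lncRNA promoters, 2.54% of coding promoters and 6.36% of windows away from starts.

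Not every lncRNA promoter with the long element was called. The following 8 of the 18 tested but uncalled windows show the same letters in other contexts, ordered from the lowest fold change to the highest, with the 13 bases in capitals and sequences read along the element's strand.
ENSG00000286833, chr2:132347365-132347403, minus strand: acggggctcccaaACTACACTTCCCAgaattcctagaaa
KCNK15-AS1, chr20:44739051-44739089, minus strand: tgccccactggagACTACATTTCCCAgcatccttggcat
SNHG12, chr1:28581947-28581985, minus strand: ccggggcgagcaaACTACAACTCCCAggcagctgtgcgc
TRIM16L, chr17:18697951-18697989, plus strand: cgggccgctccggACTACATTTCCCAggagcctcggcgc
ENSG00000291177, chr19:19776495-19776533, plus strand: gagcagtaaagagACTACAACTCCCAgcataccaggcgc
ENSG00000291159, chr15:84631393-84631431, minus strand: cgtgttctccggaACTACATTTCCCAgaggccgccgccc
LINC02427, chr4:184537618-184537656, minus strand: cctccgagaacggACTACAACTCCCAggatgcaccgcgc
ENSG00000272892, chr10:67849435-67849473, plus strand: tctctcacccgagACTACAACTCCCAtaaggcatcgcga

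Log2 fold changes of the 18 uncalled windows ran from -0.61 to -0.01 with a median of -0.31, and their control means from 1.06 to 6.03 log2 CPM with a median of 3.68. The 8 called windows with the element had control means of 1.33 to 4.24 with a median of 3.09. ENSG00000291177, the most accessible of the 26, had 5.08 to 6.44 log2 CPM in control (median 6.14) and 5.35 to 6.23 in dTAGV-1 libraries (median 5.88), a difference of -0.22 (SE 0.16, adjusted p = 1, edgeR). ENSG00000272892 had 4.03 to 4.78 (median 4.45) and 3.96 to 4.72 (median 4.48), a difference of -0.01 (SE 0.14, adjusted p = 1). The groups at ENSG00000272892 overlapped over nearly their whole range.

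The 3 bases between the modules varied. ACTACATTTCCCA was held by 13 tested lncRNA promoters, of which 6 were called, with a median log2 fold change of -0.50 and a median control level of 3.03 log2 CPM. ACTACAACTCCCA was held by 7, of which 0 were called, with a median change of -0.23 and a median level of 4.46. At coding promoters the same spellings were called in 22 of 99 and 21 of 97 windows, and away from starts in 87 of 204 and 8 of 15. As shares these were 22.2% and 21.6% of the coding promoters and 42.6% and 53.3% of the windows away from starts. The difference between the spellings was not tested.

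The element had no fixed orientation or side. Among the 26 tested windows it lay on the lncRNA's own strand in 14 and on the opposite strand in 12, and its middle was upstream of the lncRNA start in 19. It was within 100 bp of the start in 17 and ranged from 279 bp upstream to 472 bp downstream. For the 8 called windows the counts were 4 on each strand, 5 upstream and 4 within 100 bp.

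**Figure D4:**
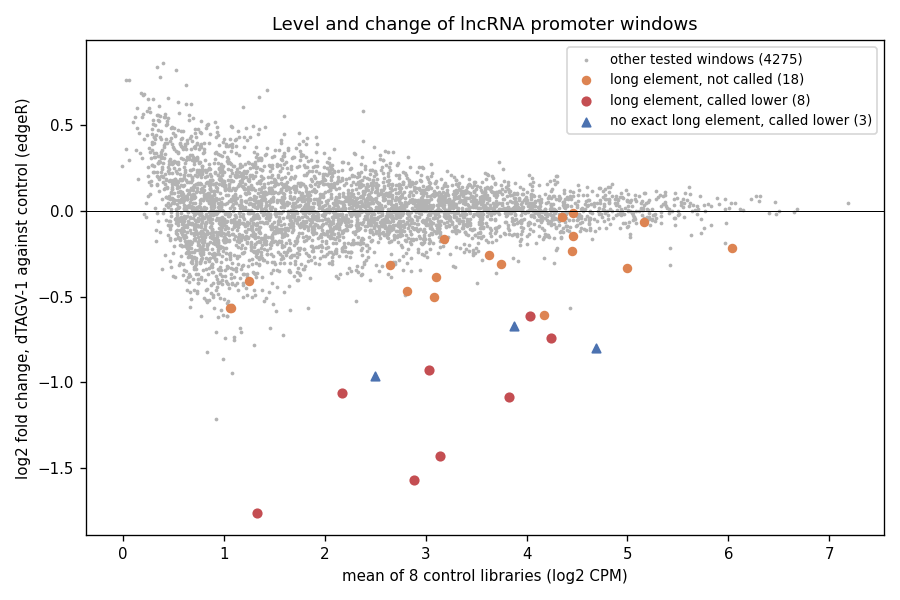
Each tested lncRNA promoter window by its mean in the 8 control libraries (log2 CPM) and its log2 fold change (dTAGV-1 against control, edgeR), with windows that hold the long element and called windows marked. The 26 windows with the element all lie below 0, and the 8 called among them have control means of 1.33 to 4.24.

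Several promoters were called only in other fits. In the fit with the replicate number as a block, 16 of the 4304 lncRNA windows were lower and 1 was higher, beside 0.401% lower and 0.00594% higher over all tested windows. The windows added were LINC00662, ENSG00000286833, KCNK15-AS1, SNHG12, PMS2P3 and, upwards, MIR100HG. All of these except MIR100HG were also called without the block when replicates 11 and 12 of both groups were left out. LINC00662, ENSG00000286833 and KCNK15-AS1 were also called when only control replicate 12 was left out. ENSG00000286833 had 3.42 to 4.58 log2 CPM in control (median 4.15) and 2.86 to 4.06 in dTAGV-1 libraries (median 3.75), a difference of -0.61 (SE 0.16) with an adjusted p of 0.124 in the unblocked and 4.59e-06 in the blocked edgeR fit, lower in 8 of 8 pairs. KCNK15-AS1, antisense to a potassium channel gene, differed by -0.50 (SE 0.16), with adjusted p-values of 0.657 and 0.0281. Its control replicate 12 was at 1.52 log2 CPM, below the lowest dTAGV-1 library at 2.37. PMS2P3, named here after its values were seen, had a control mean of 5.43 and a dTAGV-1 mean of 5.11 log2 CPM. It is a pseudogene copy of PMS2, so that its counts may be shared with near-identical sequence and are uncertain.

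SNHG12, a host of small nucleolar RNAs, held the long element 88 bp upstream of its start. Its window at chr1:28581745-28582145 had 4.27 to 5.35 log2 CPM in control libraries (median 5.07) and 4.30 to 4.83 in dTAGV-1 libraries (median 4.73). The groups overlapped, and 7 of 8 pairs were lower. Its log2 fold change was -0.33 (SE 0.14), with adjusted p-values of 1 in the unblocked fit, 0.0281 with the block and 0.0034 without replicates 11 and 12 of both groups, all by edgeR.

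MIR100HG, the host gene of miR-100 and let-7a-2, was the lncRNA promoter with the smallest p-value upwards. Its window at chr11:122202936-122203336 had 1.93 to 2.91 log2 CPM in control libraries (median 2.34) and 2.30 to 3.40 in dTAGV-1 libraries (median 2.94), higher in 6 of 8 pairs, with 5 dTAGV-1 libraries above every control. The log2 fold change was 0.58 (SE 0.16), with an adjusted p of 0.207 in the unblocked and 0.00658 in the blocked edgeR fit. In edgeR the adjusted p was 0.0738 without replicates 11 and 12 of both groups and 0.135 without control replicate 12. By DESeq2 it was 0.25, so that among these fits only the block called the window. It held neither the core nor the long element. A second MIR100HG window, beside another of its transcript starts at chr11:122101651-122102051, was weaker, with medians of 0.45 and 1.04 log2 CPM and a difference of 0.64 (SE 0.28, adjusted p = 1). The window at the gene's 5' end, chr11:122556580-122556980, had a log2 fold change of -0.05 (SE 0.15, adjusted p = 1). BACH1-AS1 differed by 0.71 (SE 0.22, adjusted p = 0.538) and was called higher only without replicates 11 and 12 of both groups, at an adjusted p of 0.00918.

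Among the 5 uncalled windows with the smallest p-values in each direction at or above the median level, SVIL-AS1 differed by -0.49 (SE 0.14, adjusted p = 0.404) and ENSG00000225057 by -0.42 (SE 0.14, adjusted p = 0.928). Upwards, ENSG00000276445 differed by 0.66 (SE 0.21, adjusted p = 0.591), and LINC01122 and ENSG00000236255 by 0.56 and 0.60, both with an adjusted p of 1 in edgeR.

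None of the lists of named lncRNAs held a called window in the unblocked edgeR fit or by DESeq2. The lists had 38, 70, 23 and 29 tested windows, and edgeR called 0.213% of all tested windows lower. They are therefore too small for the lack of calls to be read as a result. With the replicate block, SNHG12, a snoRNA host, was called lower and MIR100HG, a microRNA host, higher. Of 33 annotated snoRNA host genes, 19 had windows, 41 in number with 38 tested. At an unadjusted p of 0.05 in edgeR, which 1.55% of all tested windows passed downwards and 1.3% upwards, 1 of these 38 was lower and 1 higher. Their median log2 fold change was 0.00 with a range of -0.34 to 0.39, and their median control level was 3.17 log2 CPM. SNHG29 was among the strongest at a control median of 5.37 and a dTAGV-1 median of 5.37 log2 CPM, and SNHG20 differed by 0.31 (SE 0.14, adjusted p = 1, edgeR), with medians of 2.88 and 3.08.

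Of 72 microRNA host genes, 30 had windows, 77 in number with 70 tested. Their log2 fold changes ran from -0.47 to 0.64 around a median of 0.01, and the median control level was 2.47 log2 CPM. MIRLET7A1HG, a host of let-7 microRNAs, had medians of 6.11 and 6.06 log2 CPM in control and dTAGV-1 libraries, and MIR222HG, host of miR-221 and miR-222, had 3.91 and 4.05.

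Of 12 genes known for chromatin, dosage and imprinting, 10 had windows, 26 in number with 23 tested, and their log2 fold changes ran from -0.78 to 0.25 around a median of -0.01. The lowest was a second FTX window, chrX:74241975-74242375, with means of 1.30 in control and 0.58 log2 CPM in dTAGV-1 libraries (SE of the difference 0.29, adjusted p = 1, edgeR). The highest control mean among the tested windows of this list was 6.65 log2 CPM. The start nearest to that window belongs to a gene without a symbol, so that the ranking by gene above leaves it out. FIRRE, an X-linked RNA that contacts several chromosomes, had medians of 5.71 in control and 5.71 log2 CPM in dTAGV-1 libraries. KCNQ1OT1, the imprinted antisense RNA of the KCNQ1 domain, had 4.85 and 4.81. JPX and the FTX window nearest a transcript start, both from the X-inactivation centre, had differences of 0.16 (SE 0.14) and -0.12 (SE 0.13), both with an adjusted p of 1 in edgeR. The windows of HOTTIP, HOTAIRM1 and HOTAIR, from the HOX clusters, differed by 0.23 (SE 0.14), -0.09 (SE 0.14) and -0.03 (SE 0.15), and each had an adjusted p of 1 in edgeR.

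Of 11 genes of nuclear bodies and RNA stability, 7 had windows, and all 29 windows were tested. Their log2 fold changes ran from -0.33 to 0.23. NEAT1, the scaffold of paraspeckles, had a control median of 2.25 and a dTAGV-1 median of 2.22 log2 CPM near a transcript start, and MALAT1, a speckle-associated RNA, had 2.25 and 2.10. NORAD, which binds Pumilio proteins, had medians of 3.35 and 3.47.

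By naming class, 6 of the called windows belonged to genes with an Ensembl identifier only, 4 to genes with a LINC number and 1 to an antisense gene, classes of 2342, 902 and 455 tested windows, to be read beside 0.213% of all tested windows. Divergent transcripts, host genes, intronic or overlapping genes and genes with another symbol had 0 called of 56, 109, 29 and 411 in the unblocked edgeR fit. With the replicate block, SNHG12 and MIR100HG, both host genes, and PMS2P3, with another symbol, were called. In the unblocked fit their numbers at an unadjusted p of 0.05 were 0 lower and 1 higher, 2 and 3, 1 and 0, and 4 and 5, beside 1.55% lower and 1.3% higher over all tested windows.

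Of the 580 lncRNA promoter windows that were not tested, 132 had 0 counts in all 16 libraries. Over the whole table this held for 2816 windows, although the authors' -log10 q of the 132 had a median of 54.7 and 93 of them held a summit of replicates 1 to 8. The windows nearest the starts of H19, an imprinted RNA expressed from the maternal allele, and MIR210HG, host of the hypoxia-responsive miR-210, were among them. With 138125638 counts over the 16 libraries, a count of 0 allows up to 0.0217 CPM, for counting error only, and no level or fold change is given for these promoters. Why listed peaks have no counts was not tested.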

How the data were processed

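ATAC-seq windows were taken from a table of counts, which the authors deposited unnormalized for 16 libraries, per the file headers. All of its library columns were matched to labels by group and replicate number, with 0 left unused. The same table and the summit list carry −log10 q values or scores from the authors' peak calling, which served only to describe windows. The submitters' processing notes name hg38, cutadapt 1.8.1, Bowtie2 2.4.4 and SAMtools 1.9, without their roles, and the peak caller is not given in the sources used here. Any shift of reads for the Tn5 offset is likewise not given.

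Counts were tested with edgeR 4.0.16 (R 4.3.3): filterByExpr, TMM scaling and the quasi-likelihood test of dTAGV-1 against control without covariates. P-values were adjusted by Benjamini-Hochberg over all 185040 tested windows, at a threshold of 0.05. Log2 CPM used a prior count of 2, and mean, SD and range are over 8 libraries. DESeq2 1.42.0 was an alternative. Standard errors were derived from the test statistic. Motifs were searched within 100 bp of the centre.

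The members, lists and tests were chosen with earlier results of these data known, and the long element and its spellings after the called windows were seen. Named were every called window; the 5 lower and 5 higher uncalled windows with the smallest p-values among those at or above the median level of 1.46 log2 CPM; the 10 genes with a symbol, as against an Ensembl identifier only, that had the highest levels; the window closest to any transcript start of each listed gene; and the 15 most accessible windows with the core, drawn on where a result turned on them. Windows with the long element, the highest window and the further MIR100HG and FTX windows were added after their values were seen.

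Same-numbered control and dTAGV-1 libraries deviated together over the lncRNA windows (correlations of 0.109 to 0.315 in the 8 pairs). The numbers were therefore taken as pairs, from the data and not from the labels, for the counts of pairs and for the fit with the replicate block. The main fit left the pairing out, since the labels state no design, and so do its SEs and p-values. With the block, 16 lncRNA windows were lower and 1 higher, in place of 11 and 0. Control replicate 16 and dTAGV-1 replicates 11 and 16 did not match best with their own number, so that the pairing is uncertain, most of all for replicate 16. No pair of the 56 within groups agreed within sampling noise (chi-square per degree of freedom 1.62 to 4.56). On simulated data over 185040 windows for this comparison, the test recovered 9 of 50 windows changed by -0.5, 42 of 50 changed by -1, 49 of 50 changed by -2 and 47 of 50 changed by 1 on the log2 scale, with 4 false calls. The changed windows were drawn only from those at or above the median level, so that recovery at weaker windows is not known. The simulated spread followed the trend with level, and no library was given a flatter profile or a partner. Of the lncRNA windows, 1916 overlapped another window, 39.2%, and share counts with it.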

Additional observations from a re-analysis of the deposited data

Results flagged for a closer look

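A value far from the others was sought in 28 groups of 8 libraries, which repeat the same 16 libraries and so are not independent. In these groups 5 values stood out, where chance gives about 1 in 20 for a single group. All 5 were control replicate 12, so that they are not separate events. Its log2 CPM was 2.24 at ENSG00000267052, where the other controls had 3.05 to 3.49. At ENSG00000290112 it was 2.80 beside 3.65 to 4.17, at LINC02363 1.69 beside 3.02 to 3.43, and at LINC01530 3.78 beside 4.61 to 4.96. The lncRNA promoters took 2.82% of its counts, beside 3.17% to 3.35% in the other controls. This library also had the lowest total count and the lowest share of counts in the top decile of windows, 29.5%, and the part of these in its values was not tested. Without it, the 4 windows were still called lower, at adjusted p-values of 9.6e-09, 7.49e-09, 1.63e-06 and 2.78e-07 in edgeR.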

How the results depend on the processing

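All 11 called windows were negative in every alternative run, and 10 of them stayed called in all 21. ENSG00000287001 did not pass without control replicate 9, 10 or 13 or dTAGV-1 replicate 9. The count of lower calls was 16 with the replicate block, 12 by DESeq2, 11 with RLE scaling, 11 with no filter on low counts, and 16 without replicates 11 and 12 of both groups. It was 10 for centres within 250 bp of a lncRNA start, 11 for windows over 5000 bp from coding starts, and 8 with basic transcripts only, where LINC01704, LINC02363 and SRD5A3-AS1 were no longer members. Leaving out single libraries gave 10 to 14, with 14 without control replicate 12. The count of higher calls moved from 0 to 1 with the replicate block and to 1 without replicates 11 and 12 of both groups, and was 0 otherwise. The block and the removal of replicates 11 and 12 raised the calls over all tested windows from 397 to 753 and 781, and leaving out control replicate 12 raised them to 632. The cause was not tested. In simulation at the depth of these libraries, 9 of 50 windows changed by -0.5 were recovered, and depth was not varied on its own. Those windows were all at or above the median level, and the flatter profiles of replicates 11 and 12 were not simulated.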
